A study of Homo sapiens with 6 samples.

Results

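Interferon-stimulated genes (ISGs) were compared between DMSO and BRL-50481 cultures of MDA-MB-231. A list of 54 ISGs was looked up by symbol among the 15651 genes of the expression table, and 53 were found. CMPK2 was not analysed here. The members were divided by function into 12 genes of RNA sensing, 28 effectors, and 13 genes of ADP-ribosylation (PARP) and of ubiquitin or ubiquitin-like modification. MDA-MB-231 is an established human triple-negative breast cancer (TNBC) cell line. BRL-50481 is a selective inhibitor of the PDE7 family, which includes the cyclic AMP-degrading phosphodiesterase PDE7A. Whether the changes at the dose used came through PDE7A was not tested. RNA was sequenced from 3 DMSO and 3 BRL-50481 cultures, described as biological replicates. The treatment text gives 50 μM for 72 h, which is used here, whereas the treatment tag of the samples gives 5 μM and 48 h. The libraries come from a single cell line, and neither group received interferon according to the descriptions.

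ISGs are the genes that cells switch on when interferon binds its receptors. Type I interferon signals through the receptor chains IFNAR1 and IFNAR2 and the kinases JAK1 and TYK2 to a complex that contains STAT2 and IRF9 and binds the interferon-stimulated response element in ISG promoters. Their products detect foreign RNA, block steps of viral growth, and tag or modify proteins. Many are also transcribed at a basal level without added interferon, and IRF1 or IRF3 can act on part of them directly.

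The libraries held 30750573 to 33446984 reads on genes. Values are normalized counts, the reads of a gene divided by the size factor of its library. Replicates differed by more than the counting noise of reads, by a chi-square ratio (per degree of freedom) of 3.87 to 21.0 within the DMSO group and 2.58 to 3.43 within the BRL-50481 group, and DMSO replicate 1 stood farthest from the other two. PDE7A mRNA had 406, 405 and 409 normalized counts in the DMSO libraries and 341, 292 and 261 in the BRL-50481 libraries (log2 fold change −0.45, standard error 0.103, adjusted p = 0.00199). All 8 genes chosen to mark MDA-MB-231 were found. VIM had the most normalized counts, at 56075 to 60934 with DMSO and 86701 to 88612 with BRL-50481. The groups overlapped for S100A4 (log2 fold change 0.14) and LGALS1 (−0.11), and the other markers of this list were higher with BRL-50481. Of the genes chosen as low in this line, CDH1 lay at 31.7 to 48.6 with DMSO and 93.1 to 105 with BRL-50481, KRT8 at 5772 to 7112 with DMSO and 7608 to 7928 with BRL-50481, and ERBB2 at 1606 to 1756 with DMSO and 1864 to 1979 with BRL-50481. GATA3 of the same list lay at 166 to 228 with DMSO and 250.1 to 299 with BRL-50481. EPCAM, at 758 to 773 with DMSO and 674 to 695 with BRL-50481, had a negative log2 fold change (−0.16). PGR lay at 0 to 2.98 with DMSO and 2.01 to 7.75 with BRL-50481, and ESR1 was not analysed here. Not every gene of this list was low, since KRT8 lay at the level of S100A4 (5798 to 6709 with DMSO). Of 12 leukocyte markers, 4 were found (CD8A, CD14, CD68 and LYZ), with a summed level of 3900.4 to 4433 with DMSO and 5512 to 5841 with BRL-50481, most of it CD68, and PTPRC was not analysed here. The 5 fibroblast and endothelial markers found, of 7, summed to 619 to 675 and 912 to 1038. The part of these markers in the results was not tested.

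Most of the ISGs were higher in BRL-50481-treated cells. Of the 53 members, 35 rose, 5 fell and 13 did not pass the test, an adjusted p-value under 0.05 from limma over 15246 genes. Over all genes tested, 28.9% rose and 29.8% fell, 58.7% in either direction. The median log2 fold change of the members was 0.37, a factor of 1.29, where the median over all genes was 0.015. A rise of over 1 on the log2 scale was called in 11 members, and in 5.06% of all genes. A fall of that size was called in 0 members and in 2.98% of all genes. In 36 members every BRL-50481 library lay above every DMSO library, and in 4 every one lay below, against 31.9% and 32.3% of all genes (64.2% in either direction). The cells were measured in bulk, so more RNA per cell and more cells that express a gene cannot be told apart.

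**Figure D1:**
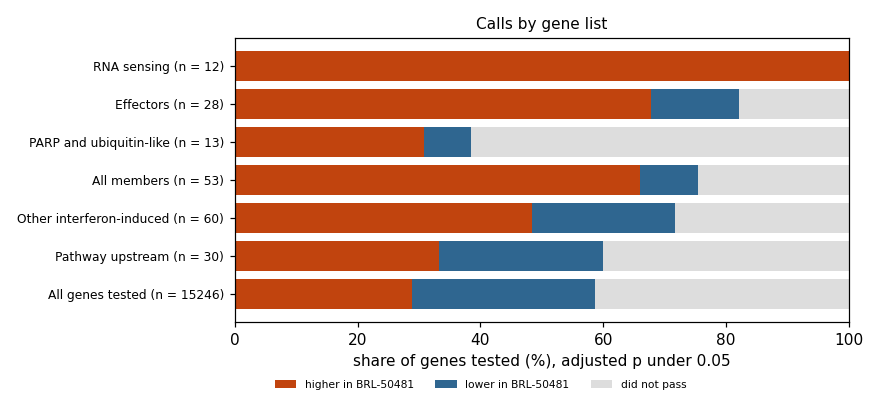
Share of the genes tested (horizontal axis, percent) that were higher, lower or did not pass at an adjusted p-value under 0.05, for each gene list (vertical axis, with its number of genes) and for all genes tested. All 12 RNA-sensing genes were higher, whereas 4 of 13 PARP and ubiquitin-like genes were.

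The function groups differed in how often their genes rose, although the difference between groups was not tested. RNA sensing rose as a whole, with 12 of 12 genes higher and a median of 0.50. Of the effectors, 19 of 28 rose and 4 fell, at a median of 0.56. Of the PARP and ubiquitin-like genes, 4 of 13 rose, 1 fell and 8 did not pass, at a median of 0.19. The rising share of this last group, 30.8%, was near that of all genes, and its share called in either direction, 38.5%, was below the 58.7% of all genes. After a correction of each library for transcript length and GC content, the medians of the same groups were 0.45, 0.61 and 0.19, and 7 PARP and ubiquitin-like genes rose. The median over all genes was then 0.0019, and the share of all genes that rose after this correction was not compared.

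**Figure D2:**
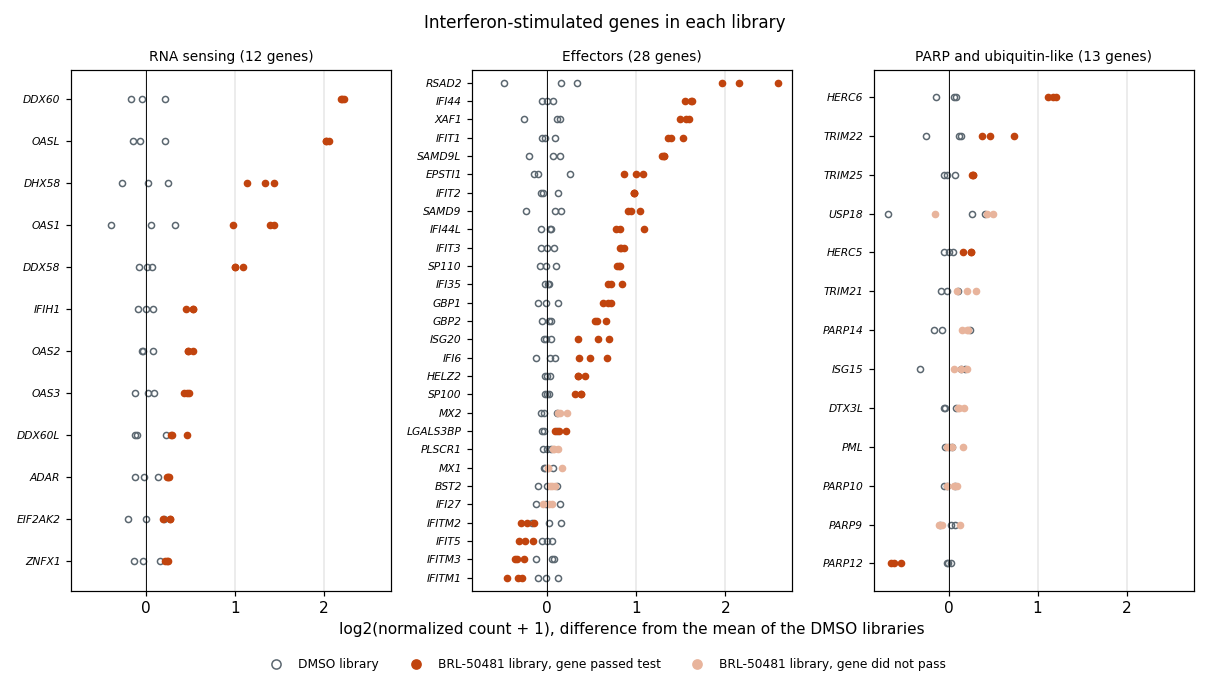
Level of each member in each library as log2(normalized count + 1), given as the difference from the mean of the 3 DMSO libraries (horizontal axis), for the 3 function groups. Open circles are DMSO libraries and filled circles BRL-50481 libraries, pale where the gene did not pass the test, and the BRL-50481 libraries of DDX60, OASL and RSAD2 lie farthest to the right.

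Basal levels differed widely between members. Per kilobase of transcript, DMSO levels ranged from 2.64 normalized counts for RSAD2 to 9931 for IFITM3, with a median of 236. LGALS3BP (8123), IFI27 (4076), ISG15 (3767) and BST2 (3414) followed IFITM3 on this scale. At the other end, IFI44L (4.62), OAS1 (7.72) and USP18 (9.62) were the next lowest after RSAD2. Of the 5 genes at the top, LGALS3BP rose by a log2 fold change of 0.14, IFITM3 fell by 0.32 on the log2 scale, and IFI27, ISG15 and BST2 did not pass.

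In the RNA-sensing group, DDX60, a helicase of the DExD/H-box family linked to RIG-I-like receptor signalling, changed most (chromosome 4, 168216291 to 168318883 of hg38). It had 850.3, 653 and 712 normalized counts in the DMSO libraries and 3389, 3432 and 3367 in the BRL-50481 libraries (log2 fold change 2.21, standard error 0.0819, adjusted p = 8.92e-10), a 4.62-fold rise. The groups were far apart, with every treated library above every control. OASL (chromosome 12, 121017763 to 121039246), a relative of the oligoadenylate synthetases that binds RNA and enhances RIG-I signalling, had 220.3, 282 and 232 normalized counts in the DMSO libraries and 994, 993 and 1017 in the BRL-50481 libraries (log2 fold change 2.04, standard error 0.0948, adjusted p = 3.85e-09). All 3 treated libraries of OASL lay close together and above the controls.

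The RIG-I-like receptors themselves rose. DDX58 (chromosome 9, 32455302 to 32526208), which encodes the cytosolic RNA sensor RIG-I, had 1461, 1324 and 1405 normalized counts in the DMSO libraries and 2972, 2784 and 2797 in the BRL-50481 libraries (log2 fold change 1.03, standard error 0.0582, adjusted p = 1.81e-08), a 2.04-fold rise. IFIH1, which encodes the related sensor of long double-stranded RNA MDA5, lay at 647 to 725 with DMSO and 941 to 994 with BRL-50481 (log2 fold change 0.51, standard error 0.0696, adjusted p = 3.78e-05). DHX58 (chromosome 17, 42101404 to 42112714), which encodes LGP2, the receptor of this family that lacks signalling domains, had 104, 89.1 and 72.5 normalized counts in the DMSO libraries and 193, 239.7 and 223 in the BRL-50481 libraries (log2 fold change 1.30, standard error 0.151, adjusted p = 8.38e-06). The groups did not overlap for any of these 3 receptors. In GENCODE, exons of DDX58 overlap those of another annotated gene on the same strand.

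The oligoadenylate synthetases, which make short oligoadenylates as a messenger on binding double-stranded RNA, rose as a family. OAS1 (chromosome 12, 112905856 to 112933219) was the scarcest, with 12.9, 15.7 and 9.19 normalized counts in the DMSO libraries and 25.2, 35.3 and 33.9 in the BRL-50481 libraries (log2 fold change 1.27, standard error 0.302, adjusted p = 0.00273). OAS2 lay at 614 to 668 with DMSO and 879 to 915 with BRL-50481 and OAS3 at 469 to 546 with DMSO and 687 to 713 with BRL-50481, with log2 fold changes of 0.49 and 0.46. OAS1 was measured on few reads, and its standard error is 0.302 against 0.0685 and 0.0779 for the other two.

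The remaining sensing genes were well expressed and rose less. ADAR (chromosome 1, 154581695 to 154628013), which edits adenosine to inosine in double-stranded RNA, had 7604, 6344 and 6793 normalized counts in the DMSO libraries and 8144, 8272 and 8198 in the BRL-50481 libraries (log2 fold change 0.25, standard error 0.0601, adjusted p = 0.0029). ZNFX1 (chromosome 20, 49237946 to 49278426), a helicase-domain sensor of viral RNA, had 4898, 4004 and 4298 normalized counts in the DMSO libraries and 5170.4, 5227 and 5101 in the BRL-50481 libraries (log2 fold change 0.24, standard error 0.0652, adjusted p = 0.00701). For both genes DMSO replicate 1 was the highest control and lay nearest to the treated libraries. DDX60L, a paralogue of DDX60, had a log2 fold change of 0.35. After the correction for transcript length and GC content, ADAR, ZNFX1 and DDX60L were still called higher, at smaller log2 fold changes of 0.14, 0.12 and 0.22. EIF2AK2, which encodes the RNA-activated kinase PKR, lay at 1362 to 1801 with DMSO and 1789.9 to 1891 with BRL-50481 with overlapping groups (log2 fold change 0.25, standard error 0.0844, adjusted p = 0.0233). Its call was lost after the correction for transcript length and GC content (log2 fold change 0.063, adjusted p = 0.228), in limma without a variance trend, and without DMSO replicate 2 or 3 or BRL-50481 replicate 1 or 3. The call of ZNFX1 was lost in limma without a variance trend (adjusted p = 0.0588).

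Among the effectors, RSAD2 (chromosome 2, 6865557 to 6898239), which encodes viperin, an enzyme that makes a chain-terminating nucleotide, had the largest log2 fold change. It was barely expressed in controls, with 5.95, 9.80 and 11.2 normalized counts in the DMSO libraries and 42.3, 57.4 and 36.8 in the BRL-50481 libraries (log2 fold change 2.23, standard error 0.315, adjusted p = 4.62e-05). With so few reads its size is uncertain, and the log2 fold change ranged from 1.99 to 2.40 when single libraries were left out. IFI44 (chromosome 1, 78649796 to 78664078), an interferon-induced antiviral protein, had 318, 330.1 and 347 normalized counts in the DMSO libraries and 1026, 1020.4 and 971 in the BRL-50481 libraries (log2 fold change 1.60, standard error 0.0738, adjusted p = 3.74e-09). XAF1 (chromosome 17, 6755447 to 6775647), a pro-apoptotic protein that binds the caspase inhibitor XIAP, had 258, 264 and 199 normalized counts in the DMSO libraries and 673, 706 and 718 in the BRL-50481 libraries (log2 fold change 1.55, standard error 0.107, adjusted p = 9.65e-08). In each of these genes the groups were fully separated.

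IFIT1, IFIT2 and IFIT3, antiviral tetratricopeptide proteins, rose together. IFIT1 (chromosome 10, 89392546 to 89406487) had 518, 562 and 508 normalized counts in the DMSO libraries and 1529, 1388 and 1353 in the BRL-50481 libraries (log2 fold change 1.42, standard error 0.0730, adjusted p = 8.47e-09). IFIT2 lay at 1372 to 1578 with DMSO and 2832 to 2853 with BRL-50481 (log2 fold change 0.97) and IFIT3 at 2189.8 to 2407 with DMSO and 4040.1 to 4161 with BRL-50481 (log2 fold change 0.83). Other effectors with a log2 fold change of about 0.5 or more were SAMD9L and SAMD9, paralogous restriction factors of poxviruses (1.30 and 0.96), EPSTI1 (0.98), IFI44L (0.89), SP110, a nuclear body protein (0.80), IFI35 (0.75), the guanylate-binding GTPases GBP1 (0.67) and GBP2 (0.58), the exonuclease ISG20 (0.54) and the mitochondrial protein IFI6 (0.50). HELZ2, a helicase-domain coactivator (0.37), and SP100, a nuclear body protein (0.36), rose less. Exons of IFIT2, IFI6, SP100 and GBP2 overlap those of another annotated gene on the same strand, and 5.27% of the read-length stretches of GBP1 occur in other transcripts. LGALS3BP (chromosome 17, 78971238 to 78979947), a secreted galectin-binding glycoprotein and the effector with the most reads, had 17081, 19218 and 17359 normalized counts in the DMSO libraries and 18910.0, 20749 and 19506 in the BRL-50481 libraries (log2 fold change 0.14, standard error 0.0547, adjusted p = 0.0394). Its groups overlapped, and its call was lost without DMSO replicate 3, without BRL-50481 replicates 2 or 3, and without a variance trend.

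The 4 effectors that fell were the IFITM genes and IFIT5. IFITM proteins sit in membranes and hinder the fusion of enveloped viruses. IFITM1 (chromosome 11, 310041 to 315272) had 833, 969.8 and 884 normalized counts in the DMSO libraries and 651, 714 and 736 in the BRL-50481 libraries (log2 fold change −0.35, standard error 0.0782, adjusted p = 0.00168), and every treated library was below every control. IFITM3 (chromosome 11, 319676 to 329475) had 5564, 6370.2 and 6269.7 normalized counts in the DMSO libraries and 4714, 5061 and 4798 in the BRL-50481 libraries (log2 fold change −0.32, standard error 0.0582, adjusted p = 0.000397), again with no overlap. IFITM2 lay at 854 to 1078 with DMSO and 788 to 868 with BRL-50481 (log2 fold change −0.22, standard error 0.0845, adjusted p = 0.0366), with overlapping groups, and kept its call in 9 of 17 alternatives. The call was lost with quantile normalization, median centring, the correction for length and GC content or no variance trend, and without DMSO replicates 2 or 3 or BRL-50481 replicates 1 or 2, always with a negative log2 fold change. After the correction for length and GC content, IFITM1 and IFITM3 were still called lower, at smaller log2 fold changes of −0.22 and −0.17. Values of these paralogues are uncertain because reads from stretches that they share cannot be assigned to 1 gene. Of the 76-base stretches of their transcripts, the length of the reads, 11.1% of IFITM1, 4.83% of IFITM2 and 12.3% of IFITM3 also occur in a transcript of another gene. Exons of IFITM1 and IFITM2 overlap those of a further annotated gene on the same strand. Stretches found only in that gene are left out of the shares of IFITM1 and IFITM2 but counted for IFITM3. IFIT5 (chromosome 10, 89414568 to 89421605), an IFIT protein that binds triphosphate-ended RNA, had 1949, 1796 and 1874 normalized counts in the DMSO libraries and 1672, 1498 and 1573 in the BRL-50481 libraries (log2 fold change −0.24, standard error 0.0612, adjusted p = 0.00383).

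Several well-known ISGs among the effectors did not pass. MX1, a dynamin-like GTPase that traps viral nucleocapsids, lay at 1049 to 1128 with DMSO and 1084 to 1213 with BRL-50481 (log2 fold change 0.063, standard error 0.0675, adjusted p = 0.444), and its paralogue MX2 at 149 to 168 with DMSO and 170.2 to 182 with BRL-50481 (log2 fold change 0.16). BST2, or tetherin, which holds budding virions at the cell surface, had a log2 fold change of 0.056 and the scramblase PLSCR1 one of 0.086. IFI27 lay at 2697 to 3254 with DMSO and 2851 to 3057 with BRL-50481 (log2 fold change 0.0067, standard error 0.0665, adjusted p = 0.94). After the correction for length and GC content IFI27, BST2 and PLSCR1 were called higher, at 0.15, 0.17 and 0.11, and MX1 and MX2 were not.

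In the PARP and ubiquitin-like group, the largest change was that of HERC6 (chromosome 4, 88378739 to 88443097), a HECT-domain ubiquitin ligase. HERC6 had 287, 245 and 283 normalized counts in the DMSO libraries and 626, 586 and 609.7 in the BRL-50481 libraries (log2 fold change 1.16, standard error 0.0890, adjusted p = 2.30e-07), a 2.24-fold rise with no overlap. HERC5 (chromosome 4, 88457119 to 88506163), the ligase that attaches ISG15 to proteins, had 2042, 1915 and 1979.6 normalized counts in the DMSO libraries and 2351, 2218 and 2361 in the BRL-50481 libraries (log2 fold change 0.22, standard error 0.0547, adjusted p = 0.00341). TRIM25 (chromosome 17, 56836387 to 56914080), a ubiquitin ligase that acts in RIG-I signalling, had 5935, 5417 and 5545 normalized counts in the DMSO libraries and 6775, 6804 and 6803 in the BRL-50481 libraries (log2 fold change 0.27, standard error 0.0486, adjusted p = 0.000338). TRIM22 (chromosome 11, 5689610 to 5737089), an antiviral TRIM ligase, had 77.4, 101 and 102 normalized counts in the DMSO libraries and 121, 155 and 128 in the BRL-50481 libraries (log2 fold change 0.52, standard error 0.157, adjusted p = 0.0113), and its call was lost without BRL-50481 replicate 2 (adjusted p = 0.0667). Exons of TRIM22 and TRIM25 overlap those of other annotated genes on the same strand.

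The ISG15 modifier and the enzyme that removes it did not pass. ISG15 (chromosome 1, 1001138 to 1014540), a ubiquitin-like protein, had 1904, 2692 and 2604 normalized counts in the DMSO libraries and 2467, 2621 and 2736 in the BRL-50481 libraries (log2 fold change 0.14, standard error 0.104, adjusted p = 0.28). DMSO replicate 1 was its lowest library and the other controls lay within the range of the treated cells. It was called higher after the correction for length and GC content (log2 fold change 0.31, adjusted p = 9.97e-05). USP18, which cleaves ISG15 from proteins and restrains the interferon receptor, lay at 10.2 to 22.8 with DMSO and 15.1 to 24.2 with BRL-50481 (log2 fold change 0.26, standard error 0.352, adjusted p = 0.553). A difference in USP18 was hard to detect at this depth, and 43.4% of its 76-base stretches occur in other transcripts, USP41 among them.

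PARP12 (chromosome 7, 140023749 to 140062951), a mono-ADP-ribosyltransferase, was the only member of its group to fall, with 2683, 2771 and 2691 normalized counts in the DMSO libraries and 1772, 1871 and 1729 in the BRL-50481 libraries (log2 fold change −0.60, standard error 0.0539, adjusted p = 9.10e-07). All 3 treated libraries lay below the controls, and its fall was the largest of all 53 members. The other PARP genes did not pass, with log2 fold changes of −0.020 for PARP9, 0.047 for PARP10 and 0.19 for PARP14. DTX3L, the ubiquitin ligase that forms a complex with PARP9, had 0.13. PML, which organizes nuclear bodies, had 0.061, and TRIM21, a cytosolic antibody receptor and ubiquitin ligase, 0.20. PARP14 and DTX3L were called higher without DMSO replicate 1, with quantile normalization and with median centring. PARP10 was called higher after the correction for length and GC content, as was TRIM21, which was also called with median centring, among genes of a mean of 20 or more, and without DMSO replicate 3 or BRL-50481 replicate 3.

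Many ISGs lie in clusters of related genes, and 17 pairs of members lie within 50 kb of each other in GENCODE. Within each library, the log2 ratio of both genes was compared, which does not depend on the scaling of the library. In 10 pairs the ratios of the groups did not overlap (p = 0.1 by a two-sided exact permutation test, which cannot go lower with 3 libraries against 3, or 0.170 after Benjamini-Hochberg adjustment over the pairs). Ratios of other gene pairs were not compared, so whether this share is particular to ISGs was not tested. Of all single genes, 64.2% did not overlap between the groups. DDX60 and DDX60L on chromosome 4 differed most, with a log2 ratio of −1.15 to −1.06 with DMSO and 0.63 to 0.82 with BRL-50481. The ratio passed from below 0 in each control to above 0 in each treated library. IFIT1 and IFIT5 on chromosome 10 moved in opposite directions, and their log2 ratio was −1.91 to −1.67 with DMSO and −0.22 to −0.11 with BRL-50481. HERC6 and HERC5 on chromosome 4 both rose, with a log2 ratio of −2.96 to −2.80 with DMSO and −1.95 to −1.91 with BRL-50481. By contrast, the ratios of OAS2 to OAS3 (0.26 to 0.39 with DMSO and 0.30 to 0.41 with BRL-50481) and of GBP1 to GBP2 (−1.26 to −1.11 with DMSO and −1.24 to −1.05 with BRL-50481) overlapped between the groups.

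**Figure D3:**
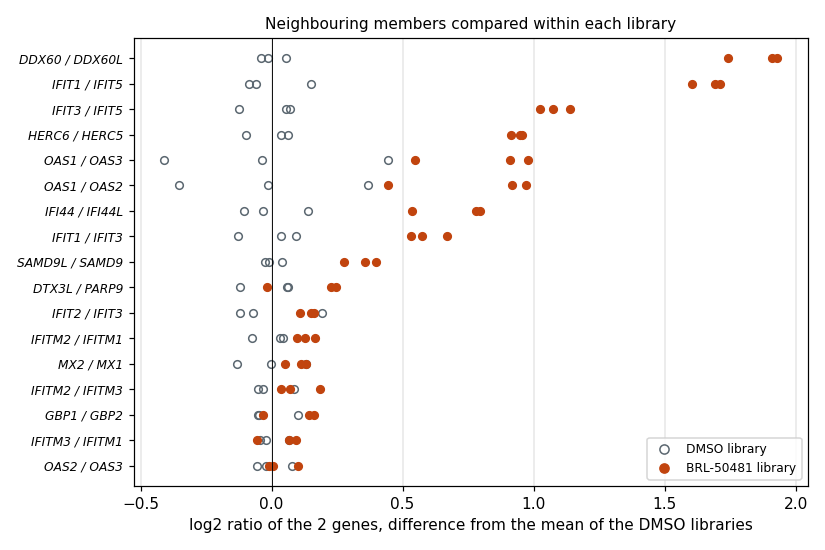
Log2 ratio of the normalized counts (with 1 added) of neighbouring members in each library, given as the difference from the mean of the 3 DMSO libraries (horizontal axis), for 17 pairs (vertical axis). Open circles are DMSO and filled circles BRL-50481 libraries, and the pairs at the top, DDX60 with DDX60L and IFIT1 with IFIT5, show the largest shifts.

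The promoters of these neighbours are shown because their genes responded unequally. Each stretch runs from 250 bases before to 50 bases after a RefSeq transcription start on GRCh38.p14, 5′ to 3′ on the strand of the gene, and capitals mark the core of the interferon-stimulated response element on either strand, which is GAAA, any 2 bases and GAAA again (or its reverse complement). The stretches are DDX60 at chr4:168318703-168319002 on the minus strand, DDX60L at chr4:168480443-168480742 on the minus strand, IFIT1 at chr10:89392373-89392672 on the plus strand, IFIT5 at chr10:89414318-89414617 on the plus strand, HERC6 at chr4:88378602-88378901 on the plus strand and HERC5 at chr4:88456869-88457168 on the plus strand.
DDX60: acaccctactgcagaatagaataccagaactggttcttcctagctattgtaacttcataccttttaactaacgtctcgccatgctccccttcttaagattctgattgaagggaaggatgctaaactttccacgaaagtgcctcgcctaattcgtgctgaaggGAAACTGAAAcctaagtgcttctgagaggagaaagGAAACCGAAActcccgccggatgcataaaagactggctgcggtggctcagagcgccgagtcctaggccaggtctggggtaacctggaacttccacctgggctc
DDX60L: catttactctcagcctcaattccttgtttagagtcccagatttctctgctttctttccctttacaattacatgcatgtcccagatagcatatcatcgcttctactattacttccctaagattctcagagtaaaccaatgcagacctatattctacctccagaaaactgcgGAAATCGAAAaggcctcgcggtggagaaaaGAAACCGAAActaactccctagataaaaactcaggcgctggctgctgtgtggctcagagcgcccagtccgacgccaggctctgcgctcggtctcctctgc
IFIT1: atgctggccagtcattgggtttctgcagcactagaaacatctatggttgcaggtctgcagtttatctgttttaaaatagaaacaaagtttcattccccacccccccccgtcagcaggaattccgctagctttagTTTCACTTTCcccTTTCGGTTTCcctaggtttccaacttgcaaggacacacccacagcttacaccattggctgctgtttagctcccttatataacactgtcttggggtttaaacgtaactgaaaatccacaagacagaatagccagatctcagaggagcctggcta
IFIT5: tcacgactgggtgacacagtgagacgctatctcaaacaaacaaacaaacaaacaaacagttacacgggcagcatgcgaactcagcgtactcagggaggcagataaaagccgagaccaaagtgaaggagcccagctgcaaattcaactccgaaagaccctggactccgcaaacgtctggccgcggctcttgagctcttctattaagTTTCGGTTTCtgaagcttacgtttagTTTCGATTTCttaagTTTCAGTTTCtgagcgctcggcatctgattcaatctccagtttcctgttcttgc
HERC6: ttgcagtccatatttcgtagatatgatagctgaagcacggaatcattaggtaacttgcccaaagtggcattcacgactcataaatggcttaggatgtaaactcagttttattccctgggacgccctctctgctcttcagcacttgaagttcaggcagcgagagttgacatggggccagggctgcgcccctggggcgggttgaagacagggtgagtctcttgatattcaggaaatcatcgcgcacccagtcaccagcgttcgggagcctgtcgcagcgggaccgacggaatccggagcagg
HERC5: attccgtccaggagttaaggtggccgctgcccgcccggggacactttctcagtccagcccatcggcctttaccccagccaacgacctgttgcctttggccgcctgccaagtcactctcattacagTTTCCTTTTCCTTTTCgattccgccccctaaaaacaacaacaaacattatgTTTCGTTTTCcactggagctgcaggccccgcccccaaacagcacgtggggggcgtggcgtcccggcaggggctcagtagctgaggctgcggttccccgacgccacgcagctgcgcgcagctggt
DDX60 and DDX60L each hold 2 matches and IFIT1 holds 2, whereas IFIT5, which fell, holds 3. HERC5 holds 3 matches, some of which overlap, and HERC6, which rose more, holds 0 in this window.

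Of the members tested, 41 had a promoter in the RefSeq table, and 30 of them (73.2%) held this core in at least 1 window, against 4.38% of the 27305 genes in the table. It was present in 17 of 28 members that rose, 4 of 4 that fell and 9 of 9 that did not pass. Members without a match in the window included DDX58, OAS1, XAF1, SAMD9L and HERC6, which rose by over 1 on the log2 scale. Only a gap of exactly 2 bases between the GAAA runs was searched. The windows of DDX58, OAS1 and XAF1 hold such runs with a shorter gap (GAAACGAAA), which was not counted. A missing match therefore does not show that a promoter lacks a response element. The gamma-activated site core TTCNNNGAA, which reads the same on both strands, was present in 11 of the 41 members (26.8%) and in 9.38% of all genes. Overlapping matches were counted separately, and a match is a run of letters, not a measured binding site.

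**Figure D4:**
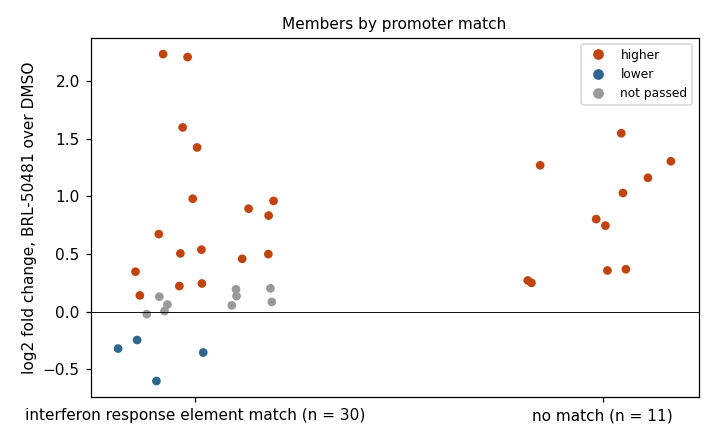
Log2 fold change of BRL-50481 over DMSO (vertical axis) of the 41 members with a promoter in the RefSeq table, divided by whether the window holds the core of the interferon-stimulated response element. Points are genes, coloured by call and spread sideways for legibility, and the 4 of these that fell lie in the column with a match.

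The genes upstream of the ISGs were called about as often as all genes. Of 37 receptors, kinases, transcription factors, adaptors and interferons listed, 30 were tested, and 10 rose, 8 fell and 12 did not pass, and the median was 0.017 on the log2 scale. These are 33.3% higher and 26.7% lower, near the 28.9% and 29.8% of all genes. The 7 interferon genes listed, among them IFNB1 and IFNL1, were not analysed here. IFNAR1 (log2 fold change 0.018, standard error 0.0559, adjusted p = 0.803) and IFNAR2 (−0.10), the chains of the type I receptor, did not pass, and IFNAR1 was called lower after the correction for length and GC content (log2 fold change −0.10, adjusted p = 0.0424). Of the interferon-gamma receptor chains, IFNGR1 fell (−0.18) and IFNGR2 rose (0.31). The receptor kinases rose, with log2 fold changes of 0.20 for JAK1, 0.44 for JAK2 and 0.30 for TYK2. The call of JAK2 was lost in 6 of 17 alternatives, among them the correction for length and GC content and leaving out DMSO replicate 2 or BRL-50481 replicates 1 or 3, and that of JAK1 in limma without a variance trend. Quantile normalization ended the call of IFNGR1.

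STAT2 and IRF9, which encode subunits of the ISG-activating complex, did not pass. STAT2 lay at 1973 to 2092 with DMSO and 2140.3 to 2274 with BRL-50481 (log2 fold change 0.10), and IRF9 at 638 to 678 with DMSO and 604 to 662 with BRL-50481 (log2 fold change −0.040). STAT2 was called higher without DMSO replicate 1, with quantile normalization and with median centring. The interferon regulatory factors IRF1, IRF2, IRF3, IRF5 and IRF7 fell. IRF3, the factor that RNA sensors activate, had 3521, 4353 and 4265 normalized counts in the DMSO libraries and 2293, 2446 and 2399.9 in the BRL-50481 libraries (log2 fold change −0.76, standard error 0.0733, adjusted p = 1.71e-06), and IRF7, itself an ISG, had 629, 844 and 836 normalized counts in the DMSO libraries and 543, 557 and 596 in the BRL-50481 libraries (log2 fold change −0.43, standard error 0.104, adjusted p = 0.00304). IRF5 fell by 0.87 on the log2 scale. IRF1, which binds many ISG promoters directly, lay at 3334 to 3717 with DMSO and 2958 to 2993 with BRL-50481 (log2 fold change −0.24, standard error 0.0533, adjusted p = 0.0019). The groups did not overlap for any of these factors, and the call of IRF2 (−0.17) was lost with quantile normalization or median centring and when DMSO replicate 3 or any BRL-50481 replicate was left out.

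The genes of nucleic acid sensing in the upstream list moved both ways. CGAS, listed as MB21D1, which encodes the cytosolic DNA sensor, had 2828, 2648 and 2783 normalized counts in the DMSO libraries and 1527, 1405 and 1516 in the BRL-50481 libraries (log2 fold change −0.89, standard error 0.0572, adjusted p = 5.23e-08). STING1, listed as TMEM173, which encodes its adaptor, had 675, 729 and 662 normalized counts in the DMSO libraries and 1022, 1130.1 and 1055 in the BRL-50481 libraries (log2 fold change 0.63, standard error 0.0704, adjusted p = 5.77e-06). MAVS, the adaptor of the RIG-I-like receptors, rose slightly (0.17), but did not pass in 6 of 17 alternatives, among them the correction for length and GC content (0.017) and leaving out DMSO replicates 2 or 3 or BRL-50481 replicates 2 or 3. The largest rises of the list were those of the kinase IKBKE (log2 fold change 1.11, standard error 0.0733, adjusted p = 6.85e-08) and the endosomal RNA receptor TLR3 (log2 fold change 0.79, standard error 0.129, adjusted p = 0.000166). In treated cells the DNA sensor was lower and its adaptor higher, with no overlap between groups in either gene.

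**Figure D5:**
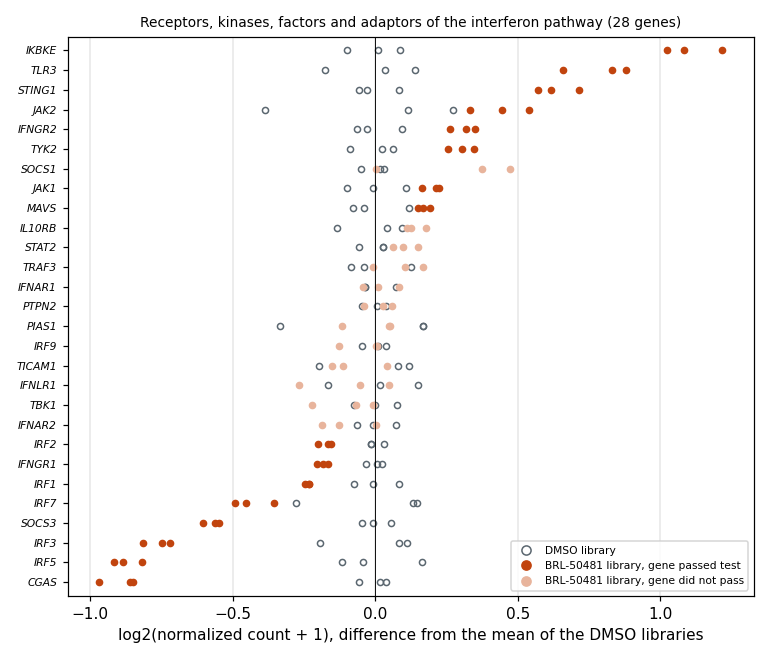
Level of 28 genes upstream of the ISGs in each library as log2(normalized count + 1), given as the difference from the mean of the 3 DMSO libraries (horizontal axis). Open circles are DMSO and filled circles BRL-50481 libraries, pale where the gene did not pass, with IKBKE at the top and CGAS, IRF5 and IRF3 at the bottom.

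A further list of 63 interferon-induced genes outside the members was compared in the same way. Of 60 tested, 29 rose, 14 fell and 17 did not pass, and the median was 0.16 on the log2 scale. The largest rises at a mean of 20 or more were those of the guanylate-binding GTPase GBP5 (41.7 to 45.1 with DMSO and 138 to 191 with BRL-50481, log2 fold change 1.87) and of the chemokines CCL5 (23.8 to 28.6 with DMSO and 63.4 to 75.6 with BRL-50481, log2 fold change 1.40) and CXCL11 (13.9 to 17.6 with DMSO and 31.0 to 46.3 with BRL-50481, log2 fold change 1.35). The largest falls were those of the membrane protein STOM (1515 to 1595 with DMSO and 465 to 534 with BRL-50481, log2 fold change −1.67), the mitochondrial ribonuclease PNPT1 (−0.82) and LAMP3 (−0.54). The share of rising genes in this second list, 48.3%, lay between that of the members and that of all genes, 28.9%.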

How the data were processed

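RNA-seq of 6 libraries from MDA-MB-231 cells was used, grouped by their titles. The labels describe oligo-dT selection of RNA, whereas the series text describes depletion of ribosomal RNA. The sequencer also differs between the Methods and the series text. The signal that the authors deposited is the read count of each gene divided by a DESeq2 size factor per library, from single-end reads of 76 bases aligned to hg38 with STAR 2.7.1a and counted by strand with htseq-count (reverse setting) against UCSC gene models, per the Methods and the labels. All 93906 values equalled a whole number of reads times the worth of 1 read (tolerance 1e-06), so reads were recovered by division. The deposited fold changes, statistics and p-values of the authors' comparison were not used. Every per-sample column was used.

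Genes that reached a normalized count of 4 in 3 or more libraries, the filter of the Methods, were kept (15246 of 15651). Because normalized values are not counts, log2 of the normalized count with 1 added was compared with limma 3.58.1 (R 4.3.3, eBayes with a trend, groups as the only term). P-values were adjusted by the Benjamini-Hochberg method over all genes tested, and fold changes are on this scale, which understates those of low genes. GENCODE v44 was used for position, exon overlap, transcript length and GC content (14216 genes found under their symbol, 891 under an earlier one, 96.5% with both properties). The authors counted on another annotation.

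The members and lists were chosen with earlier results of these data known. Members shown with every value are, per function group, the 4 largest called changes in each direction with a mean of 20 or more and groups that did not overlap, and the 2 genes with the most reads. Other lists give their 3 largest changes in each direction and fixed genes of the interferon pathway, and DDX58 and members given as ranges are named because all members are accounted for. Alternatives were pseudocounts of 0.5 and 4, other filters, median centring, quantile normalization, no variance trend, edgeR 4.0.16 and DESeq2 1.42.0 on the recovered reads, the replicate number as a block, a loess correction (span 0.5) for transcript length and GC content, and leaving out each library. Of the genes kept, limma called 8946, edgeR 8932 and DESeq2 8453. The fits were also run on simulated counts, with an outcome not reported here. Those counts had few changed genes and the same dispersion in every library, unlike these data, so they do not test the fits under these conditions. Some genes of the upstream list are counted but not reported here.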

Additional observations from a re-analysis of the deposited data

How the results depend on the processing

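Over the 17 alternatives, 32 to 40 members rose and 4 to 5 fell. The share of all genes that rose was not compared between the alternatives. In RNA sensing 10 to 12 rose, among the effectors 18 to 22, and among the PARP and ubiquitin-like genes 3 to 7, with 7 under median centring and 7 after the correction for length and GC content. The median log2 fold change of the members was 0.41 with genes of a mean of 20 or more, 0.41 with quantile normalization, 0.40 with median centring, 0.35 after the correction for length and GC content, the lowest of all, and 0.38 to 0.46 with each library left out. IFNAR1, which did not pass before, was called lower after the correction (−0.10). Of the members, 40 had the same call in all alternatives that gave a value, and no member changed direction while called. The cause of these shifts was not tested.

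Same-numbered libraries of the groups had deviations correlated at 0.12, 0.10 and 0.051, and other pairs at −0.16 to 0.061. Each DMSO library thus correlated most with the BRL-50481 library of its number, though weakly. The main fit did not pair the libraries, and whether they are paired was not tested. With the replicate number as a block, 35 members rose and 5 fell. Depth limits RSAD2, OAS1 and USP18, and p-values measure the spread between these 6 libraries of 1 cell line.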
